A study of Mus musculus with 6 samples.

Results

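Mfge8, Thbs1, Itgav, Itgb3 and Itgb5 encode the bridging molecules and the αv integrins through which a cell recognises and takes up a dead neighbour. These 5 genes, of 18193 measured, were followed in mammary glands at day 2 of involution, when milk production has stopped and the epithelium is dying back. Every probe set that carried one of the 5 symbols alone was used, which gave 14 probe sets of 45101 on the array. Mfge8 had 1 probe set, Thbs1 had 2, Itgav had 5, Itgb3 had 2 and Itgb5 had 4.

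The study asked what the small GTPase Rac1 does in the mammary epithelium, and compared 3 Rac1-/- mice with 3 WT mice, with 1 Affymetrix mouse genome array for each mouse. Rac1-/- mice were Rac1fx/fxYFP;WAPiCreTg/•. Their Cre transgene uses the promoter of the milk gene Wap, so that Rac1 is lost from luminal cells once pregnancy is well advanced and other cells of the gland keep it. WT mice were Cre-negative Rac1fx/fxYFP littermates, so both groups carried the floxed Rac1 alleles and the Rosa YFP reporter, and the Cre transgene was present in the Rac1-/- group alone. The groups were age matched, and dams had been mated as young adults and had nursed a litter before the pups were taken away. RNA came from the whole gland, and so from luminal cells that had lost Rac1 together with myoepithelium, fibroblasts, adipocytes, vessels and leukocytes that had not. Mice are called by the names in their labels, Nas496, Nas497 and Nas518 for Rac1-/- and Nas478, Nas483 and Nas484 for WT.

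Dying cells expose phosphatidylserine, a lipid otherwise kept on the inner side of the plasma membrane. MFG-E8, the product of Mfge8, is a secreted protein of the milk fat globule that binds this lipid with one end and, through an RGD motif, integrins αvβ3 and αvβ5 with the other. Thrombospondin-1, the product of Thbs1, is a secreted matrix protein that can likewise link a dead cell to αv integrin and CD36 on the cell that engulfs it. Itgav encodes the αv subunit, and Itgb3 and Itgb5 encode the β3 and β5 subunits that pair with it. In engulfment these integrins act through the adaptors Crk and Bcar1 and the exchange factor of Dock1 and Elmo1 to activate Rac.

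Mfge8 is the member that belongs both to the milk fat globule and to dead-cell uptake, and for that reason the sequence just upstream of it is shown. It is RefSeq's 250 bases before the gene's start on the minus strand of GRCm38.p6, chr7:79149061-79149310, printed 5′ to 3′ with each GC box (GGGCGG on either strand) in capitals.
Mfge8 upstream: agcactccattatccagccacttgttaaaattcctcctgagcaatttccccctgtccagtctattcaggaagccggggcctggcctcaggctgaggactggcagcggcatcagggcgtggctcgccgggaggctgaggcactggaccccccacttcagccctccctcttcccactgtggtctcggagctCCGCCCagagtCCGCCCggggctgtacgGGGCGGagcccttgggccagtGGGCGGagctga
The window held 4 GC boxes, all in its last part next to the start. A GC box stood in 32.7% of 32851 mouse promoters of this length, and 3 or more stood in 8.47%. Itgb5 had 3 and Itgav had 0 in the same window, and these were the other members with a RefSeq promoter (3 of 5 matched). Neither TATAAA, found in 12.4% of promoters, nor the STAT-type letters TTCNNNGAA, found in 7.02%, was present upstream of Mfge8, Itgav or Itgb5. These are matches of letters and nothing about binding was measured.

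The arrays differed from each other in ways that reached the members. The interquartile range of log2 intensity over all probe sets was 1.98, 1.23 and 1.48 in Rac1-/- Nas496, Nas497 and Nas518, against 2.85, 2.42 and 1.42 in WT Nas478, Nas483 and Nas484. Nas497 and Nas484 stood apart from the others at one end of principal component 1, where 43.6% of the variance lay. The 3′ minus 5′ signal of β-actin is a measure of RNA integrity and labelling. On the log2 scale it was -0.42, -1.24 and -0.30 in Rac1-/- Nas496, Nas497 and Nas518. In WT Nas478, Nas483 and Nas484 it was 0.048, 0.033 and -0.17. The genotypes did not overlap on this measure. Fits below that use it as a covariate therefore cannot part genotype from array quality. The same difference for Gapdh was -0.044, 0.18 and -0.058 in Rac1-/- Nas496, Nas497 and Nas518. In WT Nas478, Nas483 and Nas484 it was -0.037, 0.016 and 0.16. On Gapdh the genotypes overlapped, so the separation was seen for β-actin only. The probe sets of Rac1 did not separate the groups: 1451086_s_at read 9.51, 9.01 and 9.84 in Rac1-/- glands and 9.31, 9.50 and 8.97 in WT glands, and 1423734_at read 8.14 to 8.77 in Rac1-/- glands and 8.74 to 9.89 in WT glands. The third Rac1 probe set, 1437674_at, was dim, with Nas518 at the floor. Which exons were deleted relative to these probes was not given in the sources used here, and unrecombined cells contribute to both, so these values neither bear out nor contradict the labels. Deletion was checked by the study on DNA from the glands, by PCR. Values below are log2 intensities after quantile normalization across the 6 arrays, and a log2 fold change is the Rac1-/- mean minus the WT mean. Levels are not set against each other between probe sets, apart from differences of a pair within each array, which are compared only between genotypes.

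Thrombospondin-1 was the member with the clearest separation, higher in all 3 Rac1-/- glands than in any WT gland on one of its probe sets. Thbs1 1450377_at read 9.40 in Nas496, 9.21 in Nas497 and 9.05 in Nas518, against 7.90 in Nas478, 7.61 in Nas483 and 7.51 in Nas484. The gap between the nearest mice of the groups, Nas518 and Nas478, was wider than the span of either group. The means were 9.22 ± 0.17 in Rac1-/- and 7.67 ± 0.20 in WT glands (SD, n = 3 each), a log2 fold change of 1.55 (SE 0.44, 95% interval 0.54 to 2.55) or 2.92-fold. In limma's moderated test over 45037 probe sets this had an unadjusted p of 0.00738, the smallest of the 14 and number 214 of all probe sets, and an adjusted p of 0.948. It therefore did not pass. The exact permutation test over the 6 glands gave p = 0.1, which is the smallest that 3 against 3 can give. Across all probe sets, 4.59% had every Rac1-/- gland above every WT gland and 1.88% had an unadjusted limma p under 0.05 in this direction. Since RNA was taken from whole glands, a difference in the number of cells of a type and one in the RNA of each cell cannot be told apart, here and in every result that follows.

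The separation was present before quantile normalization and depended on how the arrays were scaled. On the deposited scale 1450377_at was 774, 318 and 442 in Rac1-/- glands and 287, 216 and 169 in WT glands, with no overlap and a log2 difference of 1.13. With the arrays set to a common median in place of the deposited trimmed mean the groups overlapped and the log2 fold change was 0.65 (SE 0.70). In both of these settings limma's unadjusted p was above 0.05, and in the other alternatives it was below. Leaving out any 1 gland gave 1.44 to 1.67, and leaving out Nas484 and Nas497 together gave 1.57.

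The other Thbs1 probe set was less clear. Thbs1 1460302_at read 8.66, 7.21 and 8.20 in Rac1-/- glands, against 7.33, 7.89 and 6.48 in WT glands. Nas497 was the low Rac1-/- gland and lay below 2 of the 3 WT glands, so the groups overlapped. The log2 fold change was 0.79 (SE 0.59, 95% interval -0.58 to 2.16, adjusted p = 0.948 in limma). It was 0.42 without Nas484, 0.46 without Nas496 and 1.29 without Nas497, and 0.16 with a common median. With the interquartile range as a covariate it was 1.43 and with the β-actin difference 1.74, the unadjusted p in limma being under 0.05 in both. A further probe set, 1421811_at, is annotated to both Pald1 and Thbs1 and was not counted as a member. It read 10.11, 6.82 and 10.59 in Rac1-/- glands and 8.77, 8.71 and 6.87 in WT glands, again with Nas497 and Nas484 lowest in their groups.

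**Figure D1:**
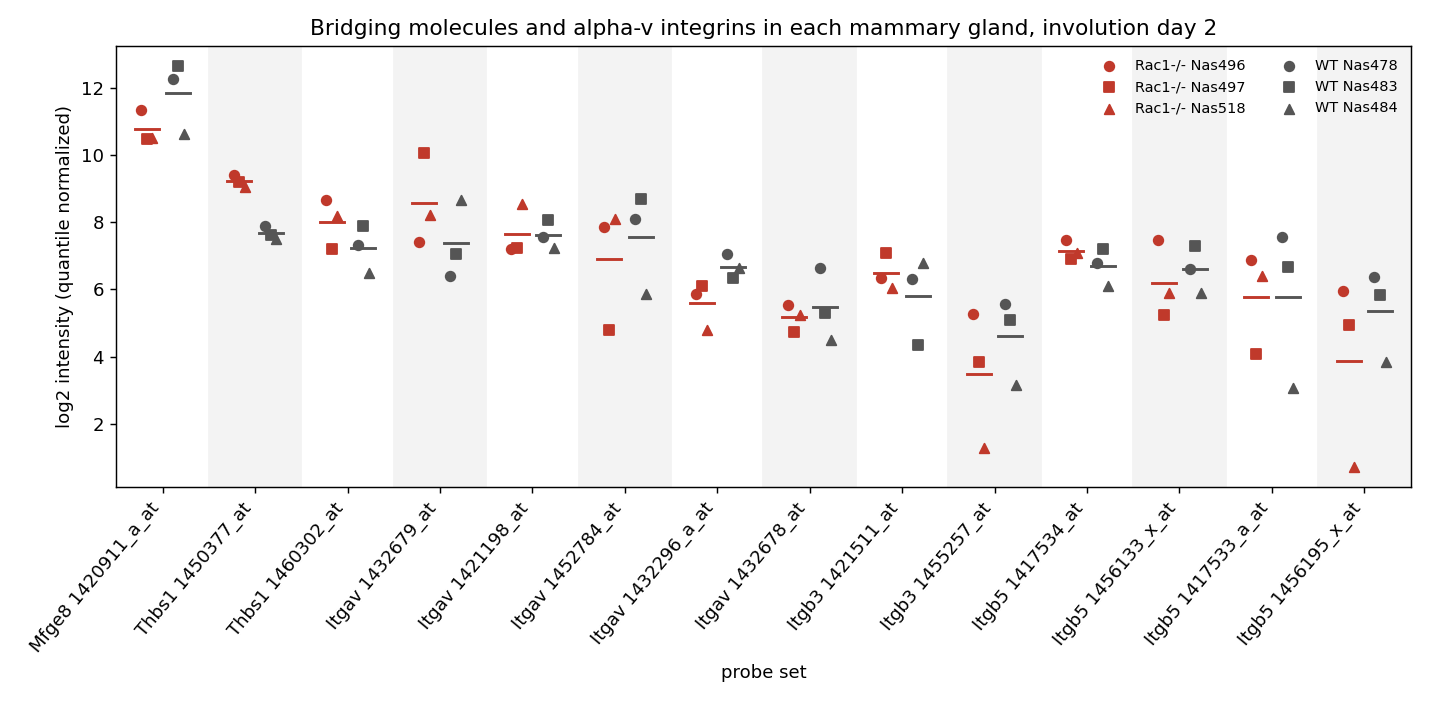
Quantile-normalized log2 intensity (vertical axis) of each of the 14 probe sets (horizontal axis), with Rac1-/- glands in red on the left and WT glands in grey on the right of each pair, 1 point per mouse and a bar at the group mean. The groups are clear of each other for Thbs1 1450377_at, with Rac1-/- above, and for Itgav 1432296_a_at, with Rac1-/- below, and overlap for the other 12 probe sets.

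Mfge8, the milk fat globule bridge, had a lower mean in Rac1-/- glands with overlapping groups. Mfge8 1420911_a_at read 11.34 in Nas496, 10.49 in Nas497 and 10.52 in Nas518, against 12.26 in Nas478, 12.66 in Nas483 and 10.62 in Nas484. WT Nas484 lay with the Rac1-/- glands, well under the other WT mice and below Nas496. The means were 10.79 ± 0.48 in Rac1-/- and 11.85 ± 1.08 in WT glands (SD, n = 3 each), and the log2 fold change was -1.06 (SE 0.64, 95% interval -2.53 to 0.41), or 0.480-fold. The limma p was 0.136 unadjusted and 0.948 adjusted, and the exact permutation p was 0.2. On the deposited scale the glands read 3301, 715 and 1077 in Rac1-/-, against 7378, 8130 and 1343 in WT. The study's supplement names Mfge8 among engulfment genes measured on arrays at this stage, so its direction is not independent evidence.

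The size of the Mfge8 difference moved with the WT gland that was left out and with the spread of the arrays. Without Nas484 it was -1.67 and without Nas483 it was -0.65. It was -0.20 with the interquartile range of each array as a covariate, -0.54 with the β-actin difference as a covariate and -2.13 with a common median. Its sign was negative in all 18 alternatives run. In limma the unadjusted p was 0.020 without Nas484, 0.040 with array weights and 0.045 without Nas484 and Nas497. The adjusted p was above 0.05 in each. The 3 arrays with the smallest interquartile range, Nas497, Nas484 and Nas518, were also the 3 with the lowest Mfge8. The part of array quality in the Mfge8 values was not tested beyond these fits, and the β-actin difference is itself tied to genotype.

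**Figure D2:**
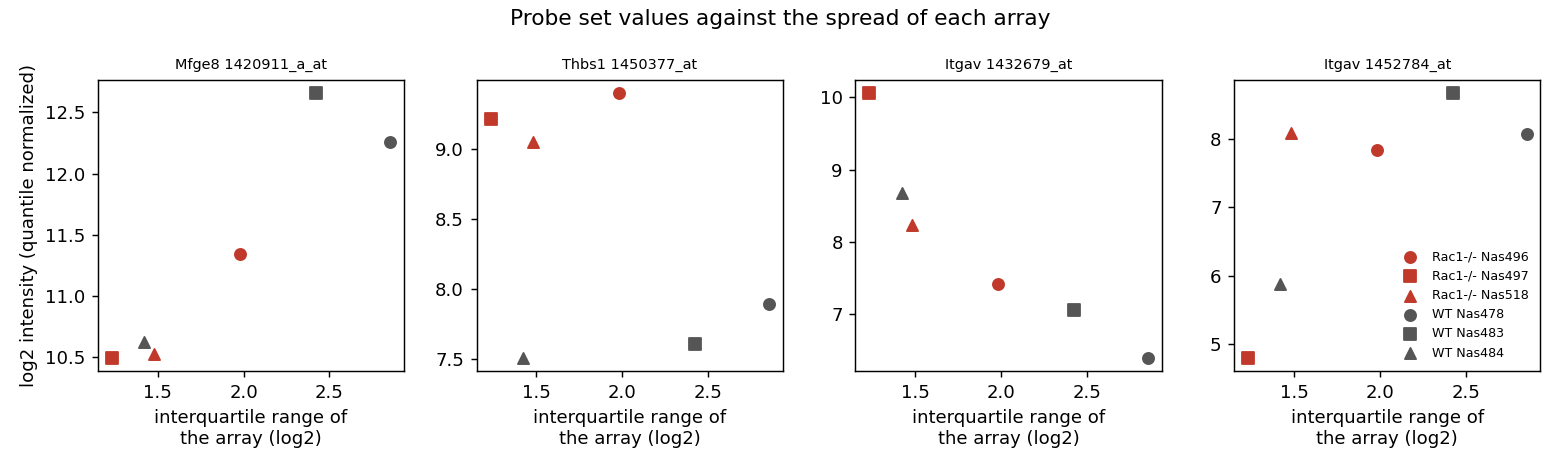
Quantile-normalized log2 intensity of 4 probe sets (vertical axes, each on its own range) against the interquartile range of log2 intensity of each array before normalization (horizontal axes), with Rac1-/- mice in red and WT mice in grey. Mfge8 is lowest on the 3 arrays of smallest range and Itgav 1432679_at is highest on them. Thbs1 1450377_at is higher in every Rac1-/- mouse than in any WT mouse. The arrays of widest range, Nas478 and Nas483, are WT and that of narrowest range, Nas497, is Rac1-/-, so range and genotype are partly tied.

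Set against each other on the same array, the pair of bridging molecules separated the genotypes. The log2 difference of Thbs1 1450377_at minus Mfge8 was -1.94, -1.28 and -1.47 in Rac1-/- glands, against -4.36, -5.05 and -3.11 in WT glands. All 3 Rac1-/- glands were above all 3 WT glands, and Nas484 was the nearest WT gland. The means were -1.57 ± 0.34 in Rac1-/- and -4.17 ± 0.98 in WT glands (SD, n = 3 each), a difference of 2.61 on the log2 scale. The exact two-sided permutation p was 0.1, the smallest this design allows. The difference was 2.79 with a common median or with no normalization between arrays, which shift both genes alike, and lay between 2.12 and 3.15 when 1 gland was left out. Such a difference shows unequal change of the pair and not which of them differed. Thbs1 1450377_at also separated the groups by itself. Unequal spread of the arrays does not cancel in the difference, and the fits with array covariates were not run on it. With the interquartile range as a covariate, the log2 fold change was 1.72 for Thbs1 1450377_at and -0.20 for Mfge8.

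Itgav, the subunit shared by αvβ3 and αvβ5, was read by 5 probe sets that did not point one way. The brightest, 1432679_at, was designed on a cDNA clone and read 7.42, 10.06 and 8.23 in Rac1-/- glands, against 6.39, 7.05 and 8.67 in WT glands. Nas484 was above 2 of the Rac1-/- glands, and the values ran in the reverse order of the arrays' interquartile ranges, with Nas497 highest and Nas478 lowest. The log2 fold change of 1.20 (SE 0.84, 95% interval -0.73 to 3.13, adjusted p = 0.948 in limma) was 0.50 without Nas497, 0.68 without Nas478 and 1.89 without Nas484, and it was -0.099 with the interquartile range and -0.54 with the β-actin difference as a covariate.

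The probe set tied to the RefSeq mRNA of Itgav gave nearly equal means. Itgav 1421198_at read 7.21, 7.23 and 8.55 in Rac1-/- glands and 7.55, 8.08 and 7.22 in WT glands, which put the log2 fold change at 0.045 (SE 0.55, adjusted p = 0.996 in limma). Its 95% interval, -1.23 to 1.32, left room for a change of either sign of more than 2-fold. Itgav 1452784_at, with 7.85, 4.79 and 8.10 in Rac1-/- and 8.09, 8.68 and 5.88 in WT glands, had Nas497 and Nas484 far below the rest and a log2 fold change of -0.64 (SE 1.05).

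A dimmer Itgav probe set was lower in every Rac1-/- gland. Itgav 1432296_a_at read 5.88, 6.11 and 4.80 in Rac1-/- glands, against 7.05, 6.34 and 6.63 in WT glands. The nearest mice, Nas497 and Nas483, lay close together. The log2 fold change was -1.08 (SE 0.53, 95% interval -2.30 to 0.14), with a limma p of 0.0759 unadjusted and 0.948 adjusted and an exact permutation p of 0.1. Over all probe sets, 4.86% had every Rac1-/- gland below every WT gland. Without normalization between arrays the groups overlapped, and without Nas518 the log2 fold change was -0.71. The fifth probe set, 1432678_at, had a log2 fold change of -0.30 (SE 0.63). Probe sets of one gene can read different transcripts, and no level of Itgav as a whole was derived from them.

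Itgb3, the β3 subunit, showed wide spread within both groups. Itgb3 1421511_at read 6.33, 7.09 and 6.04 in Rac1-/- glands, against 6.33, 4.36 and 6.77 in WT glands. One WT gland, Nas483, was low, and the other WT glands lay among the Rac1-/- glands. The log2 fold change was 0.67 (SE 0.71, 95% interval -0.96 to 2.29, adjusted p = 0.949 in limma) and was -0.062 without Nas483, 0.38 without Nas497 and 1.20 without Nas484. The dim probe set 1455257_at read 5.28, 3.85 and 1.28 in Rac1-/- glands and 5.55, 5.09 and 3.16 in WT glands, with a log2 fold change of -1.13 (SE 1.06). This rested on Nas518, without which it was -0.059, and was -2.01 without Nas496, -1.91 without Nas484 and -0.66 without Nas478.

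Itgb5, the β5 subunit, was the integrin gene with the tightest values on its brightest probe set. Itgb5 1417534_at read 7.47, 6.91 and 7.07 in Rac1-/- glands, against 6.80, 7.21 and 6.12 in WT glands. Nas483 lay above 2 of the Rac1-/- glands, so the groups overlapped. The log2 fold change was 0.44 (SE 0.49, 95% interval -0.69 to 1.58, adjusted p = 0.949 in limma), 0.0010 with a common median, 0.15 without Nas484 and 0.27 without Nas496. Its other 3 probe sets had log2 fold changes of -0.41 (1456133_x_at, SE 0.69), 0.022 (1417533_a_at, SE 1.22) and -1.48 (1456195_x_at, SE 1.32). The last of these rested on Nas518, which read 0.72 where the other Rac1-/- glands read 5.97 and 4.93 and the WT glands 6.37, 5.83 and 3.84. The names of 1456133_x_at and 1456195_x_at mark probes that may also bind other transcripts.

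The difference between the alternative β subunits was taken within each array as Itgb3 1421511_at minus Itgb5 1417534_at. It was -1.15, 0.18 and -1.04 in Rac1-/- glands, against -0.47, -2.86 and 0.66 in WT glands. The WT values enclosed all the Rac1-/- values. The difference between the genotypes was 0.22 on the log2 scale with an exact permutation p of 0.9, and it ran from -0.71 without Nas483 to 1.05 without Nas484.

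**Figure D3:**
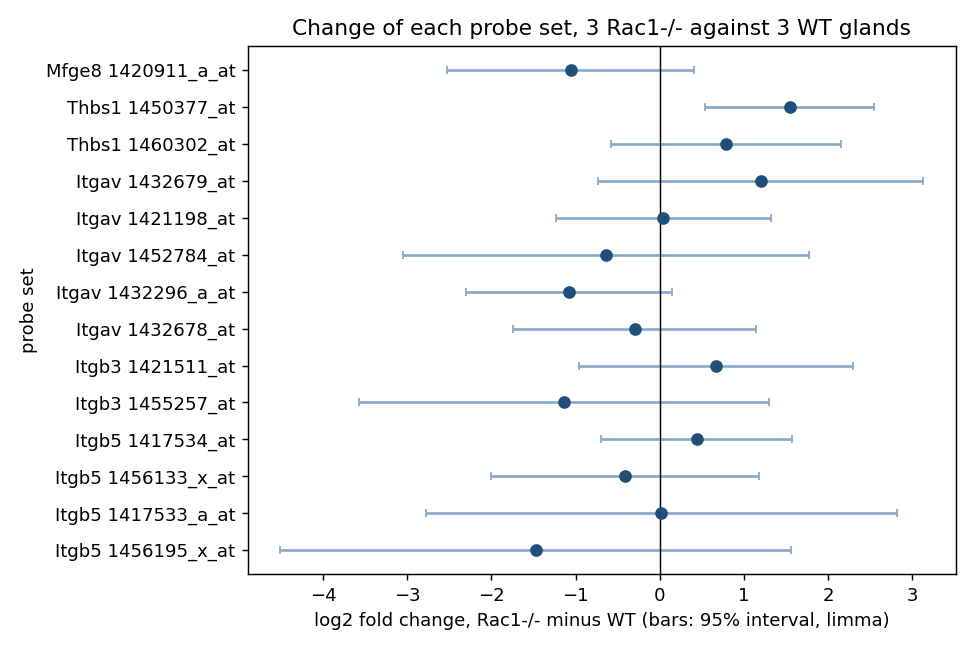
Log2 fold change (horizontal axis, Rac1-/- minus WT, 3 glands each) of the 14 probe sets (vertical axis) with 95% intervals from limma. The interval of Thbs1 1450377_at, 0.54 to 2.55, lies above 0 and the other 13 intervals include 0.

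Over the 14 probe sets, 7 had a log2 fold change above 0 and 7 below, with a median of -0.14. All probe sets together had 49.3% above 0, 50.7% below and a median of -0.011. None of the 14 passed an adjusted p of 0.05, and neither did any of the 45037 probe sets (0%). At an unadjusted limma p under 0.05, 1 of the 14 was higher in Rac1-/- glands, Thbs1 1450377_at, and 0 were lower, where 1.88% and 2.17% of all probe sets were. In data simulated on these arrays with 45037 probe sets, the same test found 0 of 50 probe sets with a true log2 change of 2 in size, 36 of 50 with 4 and 46 of 50 with 8. The simulation used independent noise and changed only probe sets above the median mean. In that setting a change of 2, larger than any estimated for the members, was not found with adjusted p-values at this number of arrays.

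The genes around the members were taken as 5 lists, 1 probe set per gene, over 18193 genes with a median log2 fold change of 0.060. No gene in these lists passed an adjusted p of 0.05, as no gene of the array did (0%). By the looser measure of unadjusted limma p under 0.05, 2.23% of genes had a higher and 1.82% a lower mean in Rac1-/- glands, while 53.9% were above 0 and 46.1% below at any p. Every Rac1-/- gland was above every WT gland for 5.41% of genes and below for 4.21%.

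Of the 8 other milk fat globule proteins, all 8 had lower means in Rac1-/- glands, and their median log2 fold change was -1.55. At the unadjusted limma p, 7 of 8 were lower and 0 higher, and 6 of 8 had no overlap between groups. Cidea, which acts in lipid droplet enlargement, read 7.46, 6.97 and 5.39 in Rac1-/- glands and 9.03, 9.06 and 9.24 in WT glands, a log2 fold change of -2.50 (SE 0.59). Fabp3, a carrier of fatty acids, had -2.27 (SE 0.58). The smallest differences were those of the membrane mucins, Muc1 at -1.18 (SE 0.48) and Muc15 at -0.91 (SE 0.92). Mfge8, at -1.06, lay between these. Without Nas484 and Nas497 all 8 were still below 0, 5 of them at the unadjusted p. The number lower at the unadjusted p was 3 without Nas497, when 1 gene was also above 0, 3 without Nas483 and 4 without Nas478. The median of this list moved with the array measures as well. It was -0.76 in the fit on β-actin, whose values are tied to genotype, and -1.16 in that on the interquartile range. In each of these fits 1 gene was above 0 and 3 were lower at the unadjusted p. With a common median of the arrays it was -2.65. The study's supplement names Cd36 from arrays at this stage, and Btn1a1 and Xdh from arrays whose stage its table does not give, so the count may not be independent evidence of its direction.

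The other thrombospondins and the receptors of thrombospondin-1 were split, with 2 of 6 above 0, 4 below and a median of -0.21. That median had no settled sign, being 0.49 with no normalization between arrays, 0.19 with the β-actin difference as a covariate and 0.016 with a common median. The close relative Thbs2, a matrix protein, read 8.13, 8.30 and 8.45 in Rac1-/- glands and 7.29, 7.21 and 6.45 in WT glands. As with Thbs1, all Rac1-/- glands were higher, and the log2 fold change was 1.31 (SE 0.45). Thbs3 read 6.12, 6.24 and 5.74 in Rac1-/- and 4.41, 5.14 and 5.48 in WT glands (1.02, SE 0.47). Of the remaining pair of thrombospondins, Thbs4 was at -0.25 and Comp at -0.38, both with overlap. Cd36, which binds thrombospondin-1 and oxidised lipids and is also a milk fat globule protein, read 10.14, 8.99 and 11.23 in Rac1-/- glands and 11.75, 11.69 and 11.49 in WT glands (-1.52, SE 0.60). Cd47, the other receptor of thrombospondin-1 in the list, was at -0.16 (SE 0.54).

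Among 16 measured of 17 other bridging molecules and opsonins, 12 were above 0 and 4 below, with a median of 0.51, and Anxa1, Gas6 and C1qa had every Rac1-/- gland above every WT gland (3 of 16). Anxa1, a phospholipid-binding protein of dying cells and leukocytes, read 10.99, 9.79 and 10.68 in Rac1-/- glands and 9.12, 8.69 and 8.43 in WT glands (1.74, SE 0.49). It was the 1 gene of this list with an unadjusted limma p under 0.05. Apoh, a plasma protein that binds anionic lipid, had 2.06 (SE 1.03) on dim and overlapping values. Mbl2, a plasma lectin, had -1.45 (SE 0.93) and Calr, a chaperone that is also exposed on dying cells, -1.28 (SE 0.92). With a common median the list had 8 above and 8 below 0 and a median of -0.025. Gas6, the bridge to the TAM receptors, read 8.89, 8.81 and 8.19 in Rac1-/- glands and 8.17, 7.82 and 7.42 in WT glands (0.82, SE 0.46), and was named here after its values were seen.

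Of 10 measured of 11 other β subunits and RGD ligands of αv, 6 were above 0 and 4 below, with a median of 0.24. The median was -0.0053 with a common median of the arrays, -0.041 as the mean of probe sets, 0.075 without Nas518 and 0.53 without Nas497. Fn1, the matrix ligand fibronectin, read 8.97, 8.59 and 8.79 in Rac1-/- glands and 7.79, 7.94 and 7.65 in WT glands, a log2 fold change of 0.99 (SE 0.42) with no overlap. Ccn1, a matricellular ligand, was also higher in all Rac1-/- glands (0.98, SE 0.48). Itgb8, another β partner of αv, was at -0.21 (SE 1.04) and Ccn3 at -0.16 (SE 0.45). Fn1 was the 1 gene of this list with an unadjusted limma p under 0.05, and the list held 0 such genes when any gland other than Nas497 was left out. Downstream, 13 measured of 14 signalling genes between integrins and Rac had 6 above and 7 below 0, with a median of -0.026. With a common median of the arrays 3 were above and 10 below 0, with a median of -0.53. Without Nas518 the counts were also 3 and 10, with a median of -0.19. Without Nas483 they were 7 and 6, with a median of 0.085. Elmo1, the partner of Dock1, read 7.68, 9.44 and 8.57 in Rac1-/- glands and 6.99, 7.10 and 6.93 in WT glands (1.56, SE 0.54). It was the 1 gene of this list with an unadjusted limma p under 0.05. The list held 0 such genes without Nas497, with a common median or with either array covariate. Dock1 itself was at -0.55 (SE 0.48), the adaptor Bcar1 at 1.19 (SE 0.74) and the GTPase Rhog at -0.53 (SE 0.64).

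**Figure D4:**
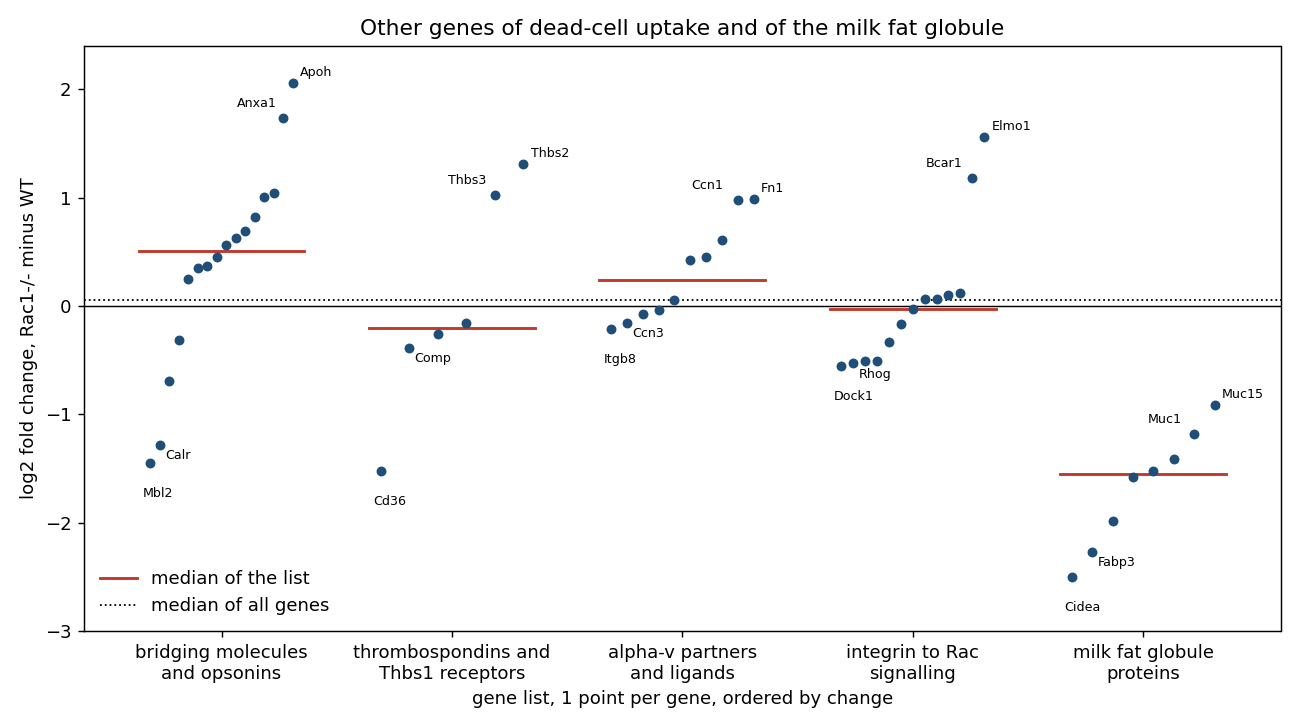
Log2 fold change (vertical axis, Rac1-/- minus WT) of the measured genes in 5 lists (horizontal axis), 1 point per gene ordered by size, with the list's median in red and the median of all 18193 genes dotted. All 8 milk fat globule genes lie below 0, whereas the other 4 lists straddle it.

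Summed levels of secretory, luminal and myoepithelial markers did not overlap between the groups, whereas those of platelet, macrophage and fibroblast markers did. No single marker in these lists passed adjustment for the number of genes tested. The summed level of 6 secretory epithelial markers (casein genes, Wap, Lalba and Elf5) was 16.10 to 16.73 in Rac1-/- glands and 17.39 to 17.59 in WT glands on the log2 scale, and 6 of 6 had lower means. The study's supplement lists casein genes, Wap, Lalba and Elf5 from arrays whose stage its tables do not give, so this direction may not be independent evidence. The summed level of 6 luminal markers was 12.58 to 12.71 in Rac1-/- and 12.20 to 12.35 in WT glands, with 4 of 6 above 0. Of the 6 luminal markers 2 were without overlap and 0 had an unadjusted limma p under 0.05. Of the 6 secretory markers these counts were 4 and 3. The sums of luminal and secretory markers thus did not run the same way, though single luminal markers were split. For Mfge8, a product of secretory epithelium and of macrophages, the part of these cells in the difference was not tested.

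Thbs1 is made by several cell types, among them platelets, macrophages and fibroblasts. The 6 platelet markers summed to 8.51 to 9.32 in Rac1-/- and 8.38 to 8.82 in WT glands, with 4 of 6 above 0 and log2 fold changes from -1.08 to 0.68. The 6 macrophage markers summed to 10.07 to 11.21 in Rac1-/- and 9.92 to 10.36 in WT glands, with 5 of 6 above 0, none of them without overlap. The 6 myoepithelial markers summed to 11.02 to 11.79 in Rac1-/- and 10.37 to 10.89 in WT glands. Of these markers 4 of 6 were above 0, with log2 fold changes from -0.45 to 1.25, and all but Acta2 overlapped between the groups. The 6 fibroblast markers, at 12.86 to 14.26 in Rac1-/- and 13.49 to 14.04 in WT glands, overlapped with 5 of 6 above 0. No marker of these lists was at the floor in any gland, but some platelet markers were dim. Itga2b read 2.20 in Nas484, Ppbp 2.72 in Nas496 and Gp9 2.88 in Nas483. The part of these cells in the Thbs1 difference was not tested.

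The genes most like each member were found by the root mean square difference of centred log2 profiles over the 6 arrays, with the member's brightest probe set and 9096 or 9097 candidate genes. For Mfge8 these were Ddhd2 (0.16), a phospholipase, Scamp2 (0.20), a protein of secretory vesicles, and Chac1 (0.25), an enzyme of glutathione breakdown. Ddhd2 read 7.61, 6.70 and 6.65 in Rac1-/- glands and 8.68, 8.73 and 7.16 in WT glands, with Nas484 again the low WT mouse. For Thbs1 they were Lif (0.20), a cytokine known for its part in early mammary involution, Osbpl3 (0.28), a lipid-binding protein, and Tmprss2 (0.28), a membrane serine protease. Lif read 7.71, 7.81 and 7.10 in Rac1-/- glands and 6.33, 6.17 and 6.14 in WT glands, without overlap.

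For Itgav 1432679_at the nearest were Mettl7a1 (0.096), 1700066C05Rik (0.16) and Rex2 (0.16), all highest in Nas497 and, as the member was, lowest in Nas478. For Itgb3 they were Slc45a1 (0.17), Dtna (0.23) and Arhgap39 (0.24), each lowest in Nas483. For Itgb5 they were Lpcat1 (0.077), an enzyme of phospholipid remodelling, Chtf8 (0.11) and Kank2 (0.13), each lowest in Nas484. These likenesses rest on 6 arrays that share the normalization, and are a description of the profiles.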

How the data were processed

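RNA from 3 Rac1-/- and 3 WT mammary glands was amplified with a kit for small amounts of degraded RNA and hybridised to Affymetrix mouse genome arrays. The authors deposited linear intensity values, 1 per probe set, on arrays that share a 2% trimmed mean of 100. The summary method was not given in the sources used here. Intensities were set to a floor of 1 after quantile normalization, taken to log2 and fitted with lmFit and eBayes of limma 3.58.1 in R 4.3.3 over the 45037 non-control probe sets, with Benjamini-Hochberg adjustment over all of them. For the gene lists, 1 probe set with a single symbol, that of highest mean, stood for each of 18193 genes. Symbols came from the platform annotation, and 34741 were checked by Entrez number against RefSeq GRCm38.p6, of which 0 differed. Single contrasts were tested by exact two-sided permutation over the 6 glands. The test was tried on simulated data. All probe sets of the members, Rac1, the 3 nearest profiles of each member and the 2 highest and 2 lowest genes of each list were named. Other genes named were chosen after their values were seen. The members and lists were chosen with earlier results of these data known. Alternatives covered scaling, floor, filter, variance model, array weights, array covariates, probe set choice and each gland left out, and the joint removal of Nas484 and Nas497. No 2 arrays were identical. The labels describe separate animals, and their number limits the precision.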

Additional observations from a re-analysis of the deposited data

How the results depend on the processing

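Of 221 member results under alternatives, 30 had the opposite sign to the main value and 0 had an adjusted limma p under 0.05. Mfge8 stayed below 0 (-2.13 to -0.20) and Thbs1 1450377_at above 0 (0.65 to 1.72), whichever alternative was run. Opposite signs were found for integrin probe sets. With the array interquartile range as a covariate, Itgav 1452784_at was 0.77, Itgav 1432678_at 0.56, Itgav 1432679_at -0.099, Itgb3 1455257_at 0.17 and Itgb5 1456133_x_at 0.36. With the β-actin difference as a covariate, Itgav 1452784_at was 1.88, Itgav 1432678_at 0.36, Itgav 1432679_at -0.54, Itgb3 1421511_at -0.17 and Itgb5 1456133_x_at 0.60. With a common median, Itgav 1421198_at was -0.62 and Itgb5 1417533_a_at -0.34. With no normalization, Itgav 1421198_at was -0.15 and Itgav 1432678_at 0.12. Itgb5 1417533_a_at was -0.29 with a floor of 16, -0.41 with array weights and -0.54 without Nas484 and Nas497. As the mean of all probe sets, Itgav was -0.15, Itgb3 -0.23 and Itgb5 -0.36. Leaving out 1 gland gave -1.38 to 0.94 for Itgb5 1417533_a_at, -1.52 to 0.47 for Itgav 1452784_at, -1.02 to 0.075 for Itgb5 1456133_x_at, -0.41 to 0.28 for Itgav 1421198_at, -2.49 to 0.10 for Itgb5 1456195_x_at, -0.82 to 0.26 for Itgav 1432678_at, -0.062 to 1.20 for Itgb3 1421511_at and -0.71 to 1.05 for Itgb3 minus Itgb5. The cause was not tested. Over all probe sets, an unadjusted p under 0.05 was met by 845 higher and 979 lower, by 1588 higher and 407 lower with no normalization, where the median log2 fold change was 0.37 against -0.011, by 375 higher and 520 lower among the probe sets above the median mean, where fewer were tested, by 1799 higher and 1662 lower with array weights, and by 1703 higher and 1690 lower without Nas484 and Nas497. Leaving out 1 gland gave 442 (without Nas497) to 2435 (without Nas484) higher and 502 (without Nas478) to 1561 (without Nas484) lower. The adjusted count was 0 in every setting. No paired analysis was possible because the labels give no replicate numbers shared between the genotypes. The removal of Nas484 and Nas497 was planned with earlier results known. The 6 arrays of unequal spread limit what can be called.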
